A study of Homo sapiens with 4 samples.

Results

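Translation initiation factors are the proteins that bring the initiator tRNA, the small ribosomal subunit and the mRNA together and place the ribosome on a start codon. They were followed here in MV4-11, a human acute myeloid leukaemia (AML) cell line, after knockdown of ANP32B, an acidic nuclear phosphoprotein that binds histones. The members are the protein-coding genes whose symbol starts with EIF1 to EIF6. The kinases of eIF2 (EIF2AK genes) and the eIF5A genes, which act mainly in elongation, were kept apart. By this rule 47 of the 18885 genes listed were members, and all 47 passed the filter on low values, as did 16937 of all genes. EIF4E1B was not analysed here.

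RNA of 2 NC libraries and 2 sh-ANP32B libraries was compared. The labels give the NC cells no hairpin and no treatment, whereas the methods of the study describe a control hairpin, so effects of lentiviral infection and puromycin selection cannot be told apart from those of the knockdown if the control carried none. The knockdown columns carry the mark S3, and the methods list a hairpin 3, so 1 hairpin may stand behind both knockdown libraries. Nothing says that the 2 libraries of a group came from separate cultures, and p-values then measure the spread between these libraries only. Levels are given in TPM, a unit that divides reads by transcript length and brings every library to an equal sum. Differences are log2 fold changes on the log2(TPM + 1) scale, sh-ANP32B against NC. They come with the standard error (SE) and the Benjamini-Hochberg adjusted p of limma over all genes tested. A gene was called lower or higher at an adjusted p below 0.05.

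In the usual route, eIF2 carries the initiator tRNA, eIF3 holds the small subunit, and eIF1 and eIF1A keep it open while it scans the mRNA. The mRNA arrives through eIF4F, in which eIF4E binds the cap, eIF4G is the scaffold and eIF4A is the helicase. The eIF4E-binding proteins (4E-BPs) keep eIF4E from eIF4G until the mTORC1 kinase phosphorylates them, and phosphorylation of eIF2 blocks its recycling by eIF2B and lets ATF4 be translated. Leukaemia cells are known to lean on cap-dependent translation, and genes for many of these factors are known targets of MYC.

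ANP32B itself was 358 and 364 TPM in NC and 54.1 and 49.3 TPM in sh-ANP32B, 14.3% of the NC mean. MYC, the gene that the study followed, was 376 and 370 TPM in NC and 240 and 236 TPM in sh-ANP32B, a log2 fold change of -0.65 (limma adjusted p = 1.91e-04). The libraries summed to between 997271 and 998546 TPM, and the depth is unknown. Mitochondrial genes held 15.9% and 15.4% of the TPM in NC and 17.6% and 17.4% in sh-ANP32B. All 8 myeloid markers looked for were listed, 4 of them higher in sh-ANP32B and 1 lower. CSF1R was low, at 0.960 and 1.39 TPM in NC and 2.36 and 2.04 TPM in sh-ANP32B. Of the higher ones, lysozyme (LYZ) went from 471 and 463 TPM to 5308 and 5260 TPM and CD68 from 39.8 and 40.1 TPM to 220 and 214 TPM. SPI1 and CD33 rose less, by 0.51 and 0.40 on the log2 scale. MEIS1 was the lower one (log2 fold change -0.61), and FLT3, HOXA9 and CSF1R were not called. Among markers of other lineages, the liver gene ALB had at most 1.48 TPM in any library. The part of these shifts in the values below was not tested.

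Most of the initiation factor genes were lower after the knockdown. Of the 47 members 33 were called lower and 5 higher, and 9 were not called. Among all genes tested, 19.7% were called lower (3342) and 26% higher (4405). That balance turned under other scalings, to 4085 lower and 3692 higher with median-of-ratios scaling and to 3936 and 3534 with quantile normalization, where the members were 38 lower and 2 higher, and 33 and 4. The members were abundant, with a median mean level of 111 TPM against 14.2 TPM over all genes tested. Of the 3628 genes that averaged 50 TPM or more, 40.6% were called lower and 30.8% higher, and of the 37 members at that level 29 were lower and 3 higher. Both sh-ANP32B libraries lay below both NC libraries for 40 members, as they did for 32.1% of all genes tested. For 5 members they lay above, as they did for 7205 of the 16937 genes tested. Only for EIF4E and EIF1B did the groups overlap, against 4292 of all genes tested.

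The shifts were mostly modest in size. The median log2 fold change of the members was -0.30, against 0.08 over all genes tested, and 42 of the 47 lay below the median of all genes. The members ranged from -1.14 (EIF4EBP3) to 1.12 (EIF4E3). At the limits the study used (p below 0.05 before adjustment and more than 0.5 either way on the log2 scale), 7 members were lower and 1 was higher, against 10.8% lower and 20.2% higher among all genes. With median-of-ratios scaling the 7 became 16. Together the members summed to 8545 and 8390 TPM in NC and to 6877 and 6819 TPM in sh-ANP32B, or from 0.856% and 0.840% to 0.689% and 0.684% of all TPM. In bulk RNA, fewer cells of a kind and less RNA per cell cannot be told apart, and a share of the TPM says nothing of the total RNA of a cell.

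**Figure D1:**
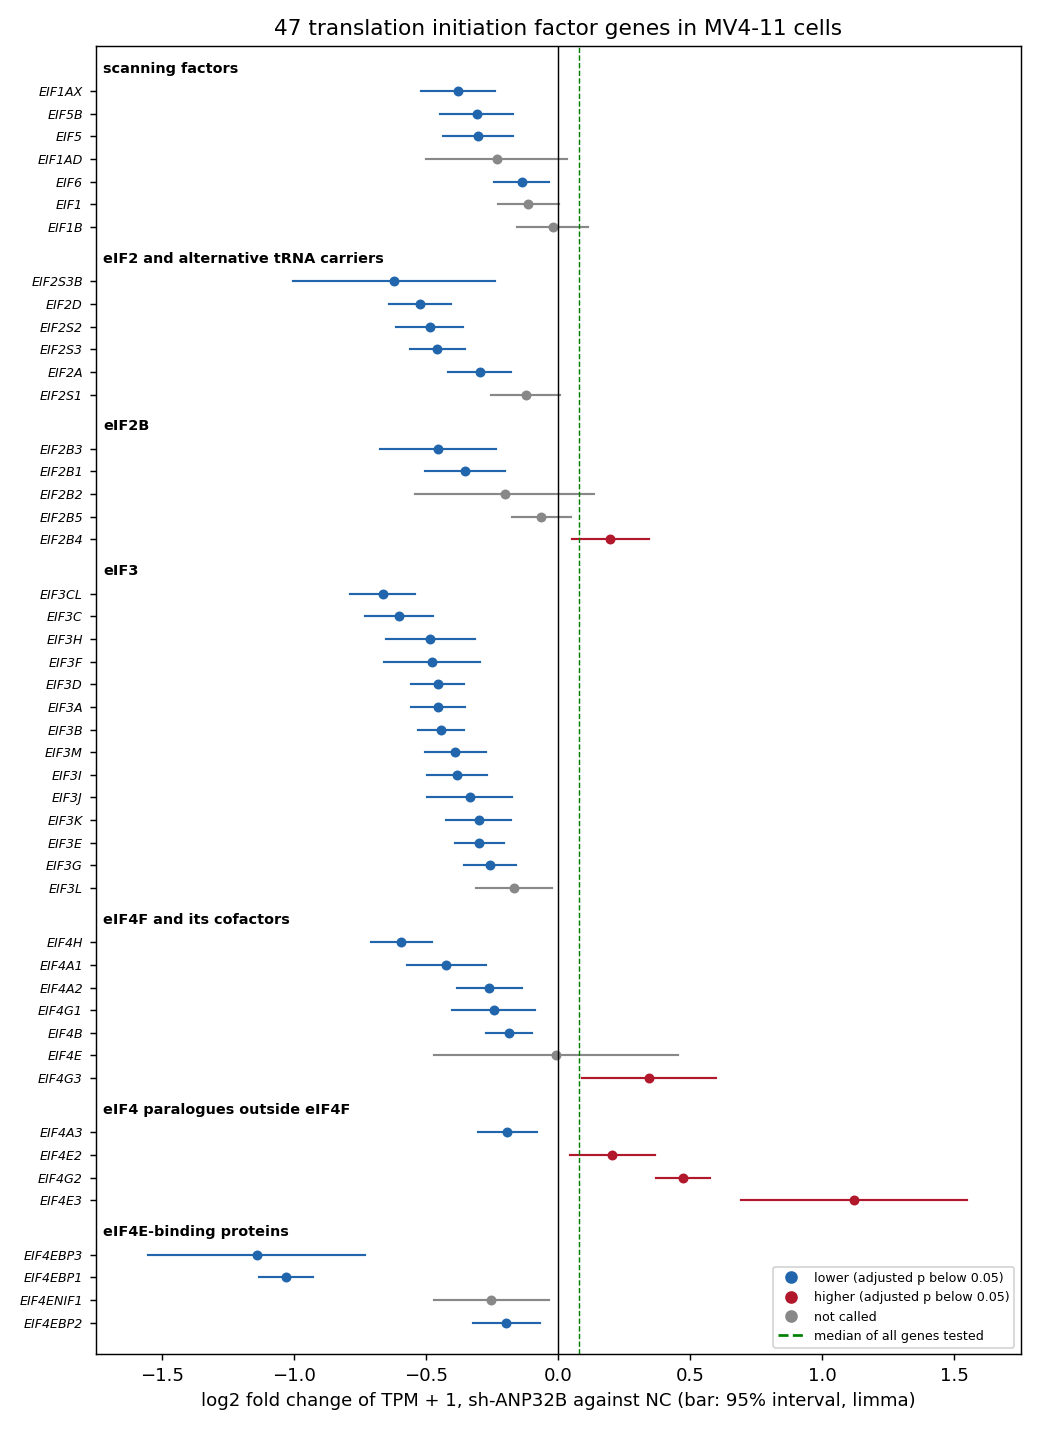
Log2 fold change of TPM + 1 (x axis, sh-ANP32B against NC) of the 47 members (y axis, by role), with bars for the 95% intervals of limma. Blue points are the 33 members called lower, red the 5 called higher and grey the 9 not called, and the dashed line marks the median of all genes tested at 0.08.

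**Figure D2:**
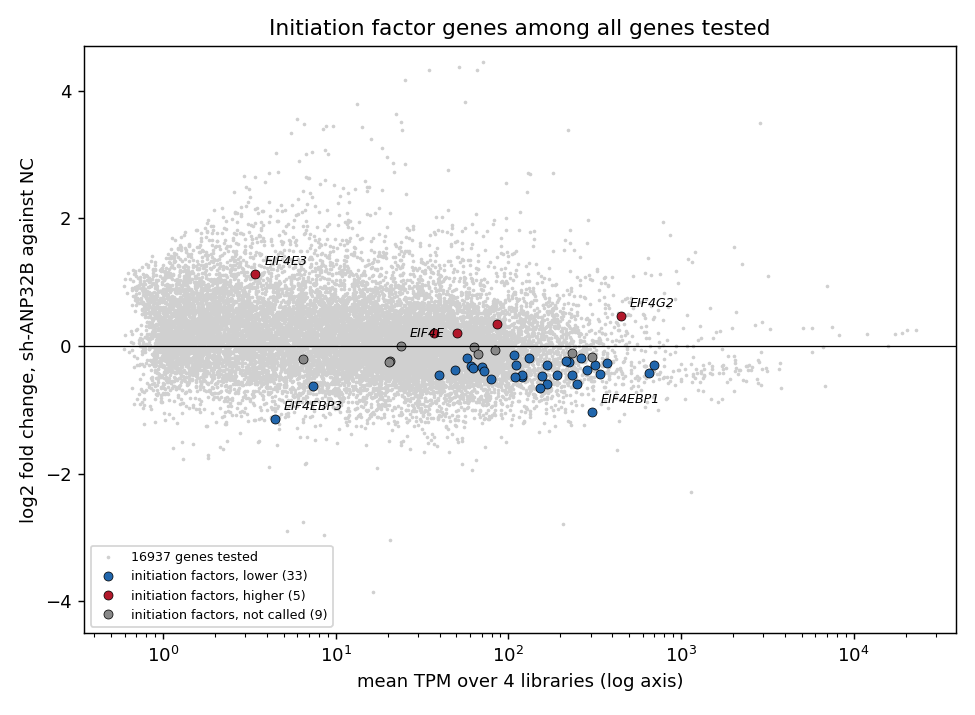
Mean TPM over the 4 libraries (x axis, log scale) against the log2 fold change (y axis) of the 16937 genes tested, in light grey, with the members in colour. Members stand at the abundant end, and all but the 5 higher ones lie below 0, with EIF4E at -0.01.

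The genes of the eIF3 complex, the scaffold that binds the small subunit and links it to eIF4G, were nearly all lower. Of its 14 genes 13 were called lower and none higher, and both sh-ANP32B libraries lay below both NC libraries for all 14. Among all genes tested, 19.7% were called lower and 26% higher, and 32.1% had both sh-ANP32B libraries below both NC libraries. Among genes that averaged 50 TPM or more, 40.6% were called lower and 30.8% higher. The median log2 fold change was -0.42, and the range was -0.66 to -0.17. The TPM of the 14 genes summed to 3713 and 3649 in NC and 2854 and 2828 in sh-ANP32B.

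EIF3C and its copy EIF3CL showed the largest shifts among the eIF3 genes. EIF3C (chr16:28688558-28735727, hg38, plus strand) was 201.4 and 201.1 TPM in NC and 127 and 138 TPM in sh-ANP32B. This gave a log2 fold change of -0.60 (SE 0.051, limma adjusted p = 5.64e-04). EIF3CL (chr16:28379579-28403841, minus strand) was 189 and 183 TPM in NC and 121 and 113 TPM in sh-ANP32B (log2 fold change -0.66, limma adjusted p = 3.94e-04). The 2 genes are near-identical copies, so how their reads were split is uncertain. Their sum, 391 and 384 TPM in NC, was 248 and 251 TPM in sh-ANP32B.

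Genes of the eIF3 core and of its outer subunits were lower alike in direction. The octamer of PCI and MPN domain subunits (EIF3A, EIF3C with EIF3CL, EIF3E, EIF3F, EIF3H, EIF3K, EIF3L and EIF3M) had 8 of 9 genes lower, and the median log2 fold change was -0.45. The subunits outside it (EIF3B, EIF3D, EIF3G, EIF3I and EIF3J) had 5 of 5 lower, at a median of -0.38. EIF3E, the most abundant, was 789 and 761 TPM in NC and 638 and 623 TPM in sh-ANP32B. EIF3D, a subunit that can bind the cap of some mRNAs, had a log2 fold change of -0.45. The gene not called was EIF3L, with 336 and 308 TPM in NC and 296 and 277 TPM in sh-ANP32B (log2 fold change -0.17, limma adjusted p = 0.0622). It was called lower with the replicate block (adjusted p = 0.0313), with median-of-ratios scaling (0.0279) and without NC replicate 2 (0.0370).

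**Figure D3:**
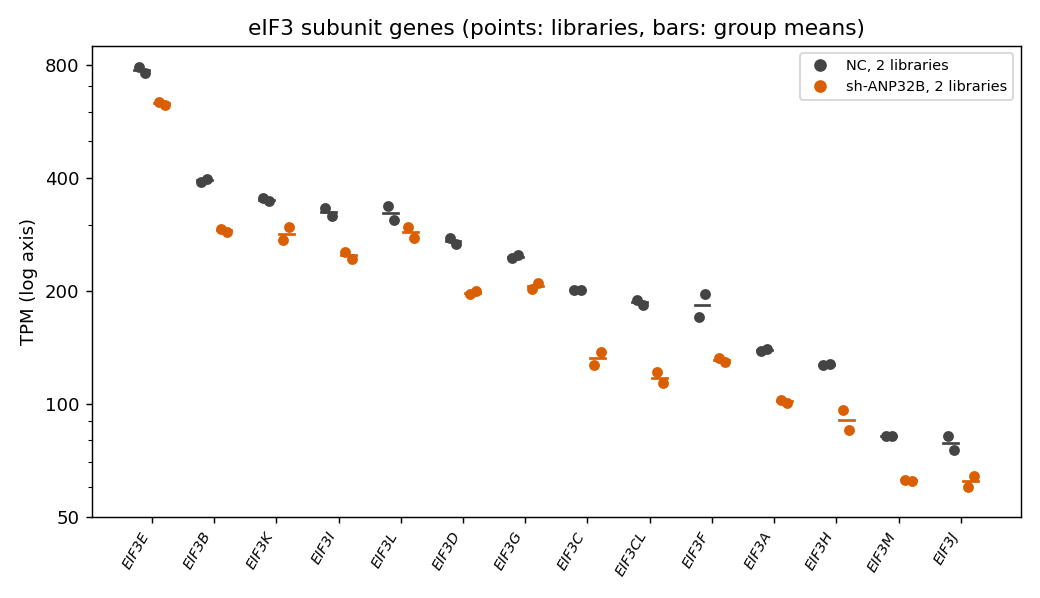
TPM (y axis, log scale) of the 14 eIF3 genes (x axis) in each library, NC in dark grey and sh-ANP32B in orange, with bars for the group means. The orange points lie below the dark ones for all 14 genes, and the gap is narrowest for EIF3L.

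The factors that deliver the initiator tRNA were called lower too, apart from the alpha subunit of eIF2. Of 6 genes 5 were called lower, and the median log2 fold change was -0.47. Beside this, 19.7% of all genes tested were called lower and 26% higher, and 40.6% and 30.8% of genes averaging 50 TPM or more. The beta subunit EIF2S2 was 141 and 138 TPM in NC and 95.8 and 103 TPM in sh-ANP32B (log2 fold change -0.49). The gamma subunit EIF2S3, which binds the tRNA, was 219.6 and 222 TPM in NC and 164 and 157 TPM in sh-ANP32B (log2 fold change -0.46). The alpha subunit EIF2S1, which the stress kinases phosphorylate, was 69.9 and 68.5 TPM in NC and 65.2 and 61.9 TPM in sh-ANP32B. That was a log2 fold change of -0.12 (95% interval -0.25 to 0.0085, limma adjusted p = 0.110). Both sh-ANP32B libraries of EIF2S1 lay below both NC libraries. It was called lower with median-of-ratios scaling (limma adjusted p = 0.0290). The level of EIF2S1 relative to EIF2S3 was 0.318 and 0.308 in NC and 0.396 and 0.394 in sh-ANP32B, so the subunit genes of 1 complex did not shift by the same factor in these libraries.

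EIF2D, which can place tRNA on the ribosome without eIF2 and acts in recycling, was 93.2 and 95.4 TPM in NC and 66.1 and 64.7 TPM in sh-ANP32B. The log2 fold change was -0.52 (SE 0.0466, limma adjusted p = 6.52e-04). EIF2A, an unrelated protein of tRNA delivery despite its name, had a log2 fold change of -0.30. EIF2S3B, a retrocopy of EIF2S3 with which it can share reads, was 9.45 and 8.93 TPM in NC and 6.39 and 4.94 TPM in sh-ANP32B. Its log2 fold change of -0.62 (SE 0.153, limma adjusted p = 0.0223) did not stay below 0.05 without NC replicate 1 (adjusted p = 0.0886), NC replicate 2 (0.0622) or sh-ANP32B replicate 2 (0.0760).

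In eIF2B, the exchange factor that reloads eIF2 with GTP, the subunits went different ways. EIF2B1, the alpha subunit, had a log2 fold change of -0.35 and EIF2B3, the gamma subunit, one of -0.45, and both were called lower. EIF2B4, the delta subunit, was called higher, at 34.4 and 34.7 TPM in NC and 40.2 and 39.3 TPM in sh-ANP32B (log2 fold change 0.20, limma adjusted p = 0.0388). That call was lost on leaving out any library, with the block, and under both rescalings (adjusted p 0.0542 to 0.154). EIF2B2 (log2 fold change -0.20, limma adjusted p = 0.273) and the catalytic EIF2B5 (-0.06, limma adjusted p = 0.299) were not called. With median-of-ratios scaling EIF2B5 was called lower (limma adjusted p = 0.0475).

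The factors of scanning and subunit joining had small shifts, 4 of 7 called lower and none higher. The shares over all genes tested were 19.7% lower and 26% higher, and those over genes averaging 50 TPM or more were 40.6% and 30.8%. With 7 genes, the count of 4 was not set apart from those shares. The 4 were EIF1AX (log2 fold change -0.38), EIF5B (-0.31), EIF5 (-0.30) and EIF6 (-0.14). EIF5 activates the GTPase of eIF2, EIF5B joins the subunits, and EIF6 keeps the large subunit from joining early. The call of EIF6 was lost on leaving out any library (limma adjusted p 0.1003 to 0.155), with the replicate block (0.0782), with quantile normalization (0.0673) and without mitochondrial genes (0.0968). EIF1AD, a small relative of eIF1A, had a log2 fold change of -0.23 and was not called (limma adjusted p = 0.131). The start-codon gatekeeper EIF1 was 247 and 239 TPM in NC and 218 and 231 TPM in sh-ANP32B, and was not called either (log2 fold change -0.11, limma adjusted p = 0.0984). With median-of-ratios scaling EIF1 was called lower (limma adjusted p = 0.0272). Its paralogue EIF1B was 63.6 and 63.6 TPM in NC and 60.9 and 64.5 TPM in sh-ANP32B, with the groups overlapping and a 95% interval of -0.15 to 0.11 for the log2 fold change. Thus in each library EIF1 was between 3.58 and 3.88 times EIF1B.

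No change was detectable for the cap-binding protein itself, whose libraries were spread widely. EIF4E (chr4:98879276-98929133, hg38, minus strand) was 26.3 and 21.2 TPM in NC and 19.7 and 28.0 TPM in sh-ANP32B. The groups overlapped, and the log2 fold change was -0.01 with a 95% interval of -0.47 to 0.45 (limma adjusted p = 0.978). That interval was the widest of the 47 members, and leaving out 1 sh-ANP32B library moved the value to 0.24 or -0.25. Over the EIF4E pseudogenes listed, TPM summed to 23.5 and 24.9 in NC and 22.8 and 19.1 in sh-ANP32B, close to the level of EIF4E itself, so reads may have been split among them. With these pseudogenes summed into EIF4E, the log2 fold change was -0.0976, and it was again not called (limma adjusted p = 0.336).

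The 4E-BPs, the repressors of eIF4E, held the largest decrease among the 37 members at 50 TPM or more. EIF4EBP1 (chr8:38030534-38060365, plus strand), the main target of mTORC1 among them, was 412 and 408 TPM in NC and 196 and 205 TPM in sh-ANP32B. It fell to 48.9% of the NC mean, a log2 fold change of -1.03 (SE 0.0405, limma adjusted p = 9.69e-05), and was lower by 0.99 to 1.11 under every alternative run. EIF4EBP2 was 61.4 and 61.2 TPM in NC and 54.1 and 52.7 TPM in sh-ANP32B (log2 fold change -0.20, limma adjusted p = 0.0255). That call was lost on leaving out any library (adjusted p 0.0608 to 0.0979).

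EIF4EBP3 (chr5:140547662-140549576, plus strand) was 5.90 and 7.08 TPM in NC and 2.37 and 2.40 TPM in sh-ANP32B. This was a log2 fold change of -1.14 (SE 0.164, limma adjusted p = 0.00339). It shares 507 of its 693 exonic bases with the readthrough gene ANKHD1-EIF4EBP3, which was 27.3 and 36.7 TPM in NC and 31.5 and 29.8 TPM in sh-ANP32B, so the split of reads between them is uncertain. EIF4ENIF1, the eIF4E transporter 4E-T, had a log2 fold change of -0.25 and was not called (limma adjusted p = 0.0626). It was called lower with median-of-ratios scaling (limma adjusted p = 0.0275) and with quantile normalization (0.0492). Summed over EIF4EBP1 to EIF4EBP3, the 4E-BP level was 479 and 476 TPM in NC and 252 and 260.5 TPM in sh-ANP32B. Relative to EIF4E the sum was 18.2 and 22.4 in NC and 12.8 and 9.30 in sh-ANP32B. The divisor was EIF4E alone, without its pseudogenes, which may share its reads, so the size of this ratio is uncertain. EIF4EBP1 made up 86.0% and 85.7% of the sum in NC and 77.6% and 78.8% in sh-ANP32B. With 2 libraries a group, an exact permutation test of such a ratio could not give a two-sided p below 0.33, so these ratios are descriptions.

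**Figure D4:**
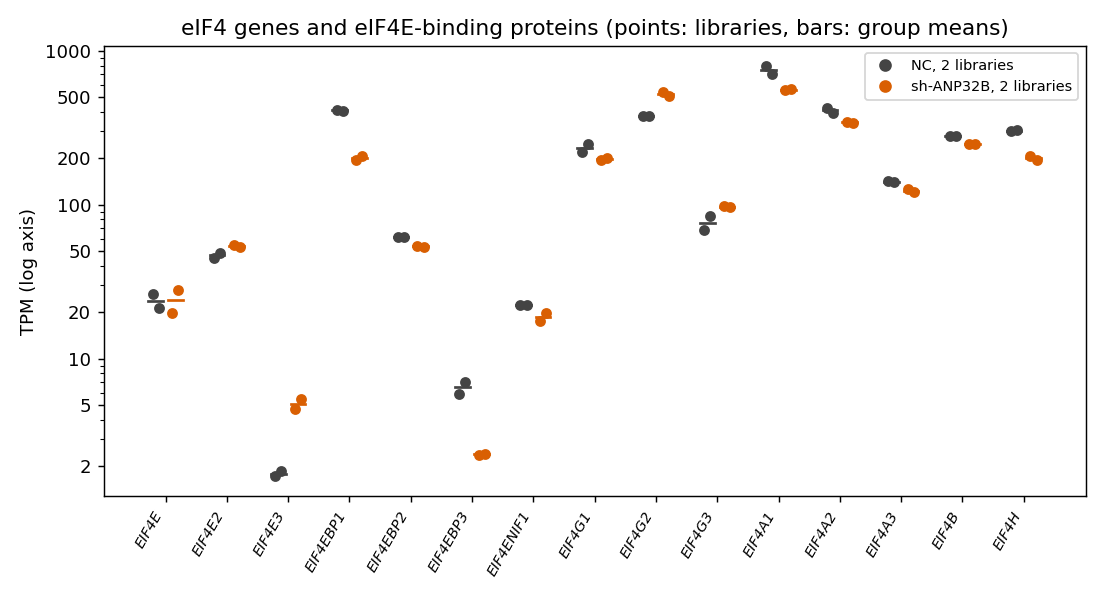
TPM (y axis, log scale) of the eIF4 genes and the eIF4E-binding proteins (x axis) in each library, NC in dark grey and sh-ANP32B in orange, with bars for the group means. The groups overlap for EIF4E, while EIF4EBP1 and EIF4EBP3 lie lower and EIF4G2 and EIF4E3 higher in sh-ANP32B.

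The scaffolds of eIF4F showed opposite directions. EIF4G1, the main scaffold, was 221 and 248 TPM in NC and 196 and 199 TPM in sh-ANP32B. Its log2 fold change was -0.24 (SE 0.0629, limma adjusted p = 0.0259), and -0.16 (adjusted p = 0.0658) without NC replicate 2. Without sh-ANP32B replicate 1 or 2 its call was lost as well, at adjusted p = 0.0782 and 0.0601. EIF4G3 was 68.2 and 84.5 TPM in NC and 97.3 and 95.9 TPM in sh-ANP32B (log2 fold change 0.34, SE 0.102, limma adjusted p = 0.0394). That value was 0.19 (adjusted p = 0.0662) without NC replicate 1, and it was not called either without sh-ANP32B replicate 1 (0.101) or 2 (0.0872), or under median-of-ratios scaling (0.0701).

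EIF4G2 (chr11:10797050-10808940, minus strand), also called DAP5, lacks the eIF4E-binding part and serves translation that does not use eIF4E. It was 374 and 378 TPM in NC and 537 and 508 TPM in sh-ANP32B. The groups were well apart, with a log2 fold change of 0.47 (SE 0.0409, 95% interval 0.37 to 0.58, limma adjusted p = 5.93e-04). Of the TPM of EIF4G1, EIF4G2 and EIF4G3 together, EIF4G2 held 56.4% and 53.2% in NC and 64.7% and 63.2% in sh-ANP32B. EIF4G1 relative to EIF4G2 went from 0.590 and 0.657 to 0.365 and 0.392. EIF4G2 thereby stood out among the abundant members: of the 5 called higher it was the only one above 100 TPM in any library, and it stayed called in all 12 alternatives.

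The helicases and their cofactors were lower. EIF4A1, the main helicase, was 789 and 703 TPM in NC and 552 and 559 TPM in sh-ANP32B (log2 fold change -0.42, SE 0.060, limma adjusted p = 0.00323). Of its exonic bases 42.1% are shared with the unnamed same-strand gene ENSG00000264772 (64.5 and 56.8 TPM in NC, 67.7 and 74.3 TPM in sh-ANP32B) and 28.2% with the readthrough SENP3-EIF4A1. The span of ENSG00000264772 (chr17:7572826-7582024) also runs over most of CD68 (chr17:7579491-7582111) on the same strand. CD68 was higher in sh-ANP32B, and its part in the values of ENSG00000264772 was not tested. EIF4A2 was 426 and 393 TPM in NC and 345 and 338 TPM in sh-ANP32B (log2 fold change -0.26). EIF4A3, a relative that belongs to the exon junction complex rather than to eIF4F, had a log2 fold change of -0.19 (limma adjusted p = 0.0188), and its call was lost without NC replicate 1 (adjusted p = 0.0754), NC replicate 2 (0.0603) or sh-ANP32B replicate 2 (0.0785). EIF4A1 was 1.85 and 1.79 times EIF4A2 in NC and 1.60 and 1.66 times in sh-ANP32B.

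EIF4H, which stimulates eIF4A, had the largest decrease of the eIF4F group. EIF4H (chr7:74174231-74197122, plus strand) was 299 and 305 TPM in NC and 207 and 193 TPM in sh-ANP32B, a log2 fold change of -0.59 (SE 0.0463, limma adjusted p = 4.34e-04). EIF4B, the other stimulator of eIF4A, was 281 and 280.3 TPM in NC and 247 and 246 TPM in sh-ANP32B. It was called lower as well, at a log2 fold change of -0.19 (limma adjusted p = 0.00845).

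The other cap-binding proteins were called higher. EIF4E3 (chr3:71675414-71754773, minus strand), which binds the cap in an atypical way, was 1.73 and 1.85 TPM in NC and 4.705 and 5.43 TPM in sh-ANP32B. Its log2 fold change was 1.12 (SE 0.172, limma adjusted p = 0.00425), and 0.86 to 1.45 under the alternatives. EIF4E2 (4EHP), which represses translation at the cap, was 44.6 and 48.8 TPM in NC and 54.6 and 53.3 TPM in sh-ANP32B. Its log2 fold change of 0.21 (limma adjusted p = 0.0474) was not called without NC replicate 1 (0.192), sh-ANP32B replicate 1 (0.146) or sh-ANP32B replicate 2 (0.0998), with the replicate block (0.0742), with no filter on low values (0.0513) or with median-of-ratios scaling (0.143). Of the TPM of EIF4E, EIF4E2 and EIF4E3 together, EIF4E3 held 2.38% and 2.57% in NC and 5.96% and 6.26% in sh-ANP32B.

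The promoters of the members were searched for the E-box CACGTG, the motif of MYC with MAX and of other helix-loop-helix factors, since MYC was lower in these libraries. RefSeq promoters (GRCh38.p14, 250 bases before the start, both strands) were at hand for 39 of the 47 members. The E-box was in 10 of the 39 (25.6%) and in 932 of the 10015 promoters at hand for genes tested (9.31%). Promoters of genes at a level like that of the members were not counted apart. Of the 10 members with it, 8 were called lower and none higher, and the median log2 fold change was -0.27, and of the 29 without it, 18 were lower and 5 higher, with a median of -0.30. The ETS motif CCGGAAG, searched beside it, was in 17.9% of the member promoters and 16.5% of all. The windows shown are those of the 10 members in which no annotated exon lies, with the E-box in capitals and 5′ to 3′ on the strand of the gene. EIF4H, EIF4EBP3 and EIF2B3 were called lower and EIF4E, with 2 E-boxes, was not.
EIF4H, chr7:74174127-74174192, plus strand: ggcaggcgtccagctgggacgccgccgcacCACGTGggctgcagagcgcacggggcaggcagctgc
EIF4EBP3, chr5:140547619-140547661, plus strand: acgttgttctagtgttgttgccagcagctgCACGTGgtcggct
EIF2B3, chr1:44986739-44986804, minus strand: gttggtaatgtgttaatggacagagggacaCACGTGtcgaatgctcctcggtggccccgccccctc
EIF4E, chr4:98929323-98929383, minus strand: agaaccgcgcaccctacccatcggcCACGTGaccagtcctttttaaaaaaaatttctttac
EIF4E, chr4:98929170-98929235, minus strand: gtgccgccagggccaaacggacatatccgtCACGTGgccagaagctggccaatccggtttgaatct

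The genes that set the activity of these factors were followed from lists of related genes. Of 8 genes for the kinases and the phosphatase of eIF2, 2 were called lower, 1 higher and 5 not. Over all genes tested, 19.7% were called lower and 26% higher. The median log2 fold change of the 8 was -0.11. EIF2AK1, the haem-regulated kinase HRI, was 146 and 143 TPM in NC and 97.6 and 89.3 TPM in sh-ANP32B. PPP1R15B, which directs the phosphatase to eIF2, was 72.7 and 75.1 TPM in NC and 41.7 and 40.2 TPM in sh-ANP32B. EIF2AK3, the kinase PERK of the endoplasmic reticulum, was instead higher, at 3.57 and 3.56 TPM in NC and 5.96 and 6.08 TPM in sh-ANP32B (limma adjusted p = 0.0170).

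ATF4, the factor whose mRNA is translated when eIF2 is phosphorylated, and its targets were mostly lower. Of 14 such genes tested 8 were lower and 3 higher, beside 19.7% lower and 26% higher over all genes tested. The median log2 fold change of the 14 was -0.39. The largest decreases were those of DDIT4, an inhibitor of mTORC1 (131 and 134 TPM in NC, 48.5 and 48.7 TPM in sh-ANP32B), and of PHGDH, the entry enzyme of serine synthesis (log2 fold change -1.18). CTH, an enzyme of cysteine synthesis, and PSAT1, of serine synthesis, followed at -0.93 and -0.86. The 3 higher ones were ASNS, SLC7A11 and CEBPB, so the list did not move in 1 direction.

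Of the 14 mTORC1 and MNK genes 3 were lower and 5 higher, beside 19.7% lower and 26% higher over all genes tested, and the median difference was 0.28 on the log2 scale. MKNK1, a kinase that phosphorylates eIF4E, was 46.7 and 44.4 TPM in NC and 88.6 and 93.4 TPM in sh-ANP32B. The difference was 0.98 on the log2 scale (SE 0.0570, limma adjusted p = 2.11e-04). DEPTOR, which binds and restrains mTOR, and TSC2, which restrains mTORC1 through RHEB, were higher by 0.83 and 0.59 on the log2 scale. The level of DEPTOR was low, at 2.76 and 3.28 TPM in NC and 5.64 and 6.64 TPM in sh-ANP32B. MLST8, a subunit of the complex, was lower, with a log2 fold change of -0.70.

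Among other partners of initiation, 7 of 12 genes tested were lower and none higher. Over all genes tested, 19.7% were lower and 26% higher. The median log2 fold change of the 12 was -0.25. The 7 included ABCE1, which splits ribosomes for reuse (log2 fold change -0.62), the poly(A)-binding protein PABPC4 (-0.56), BZW2 (-0.46) and the ribosomal scaffold RACK1 (-0.36). Of the eIF5A genes and the enzymes that make its hypusine, 2 of 4 were lower, EIF5A with a log2 fold change of -0.42 and DOHH with one of -1.30. DOHH was 54.9 and 36.7 TPM in NC and 18.4 and 16.9 TPM in sh-ANP32B, so its NC libraries lay far apart. EIF5A2 and DHPS were not called.

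**Figure D5:**
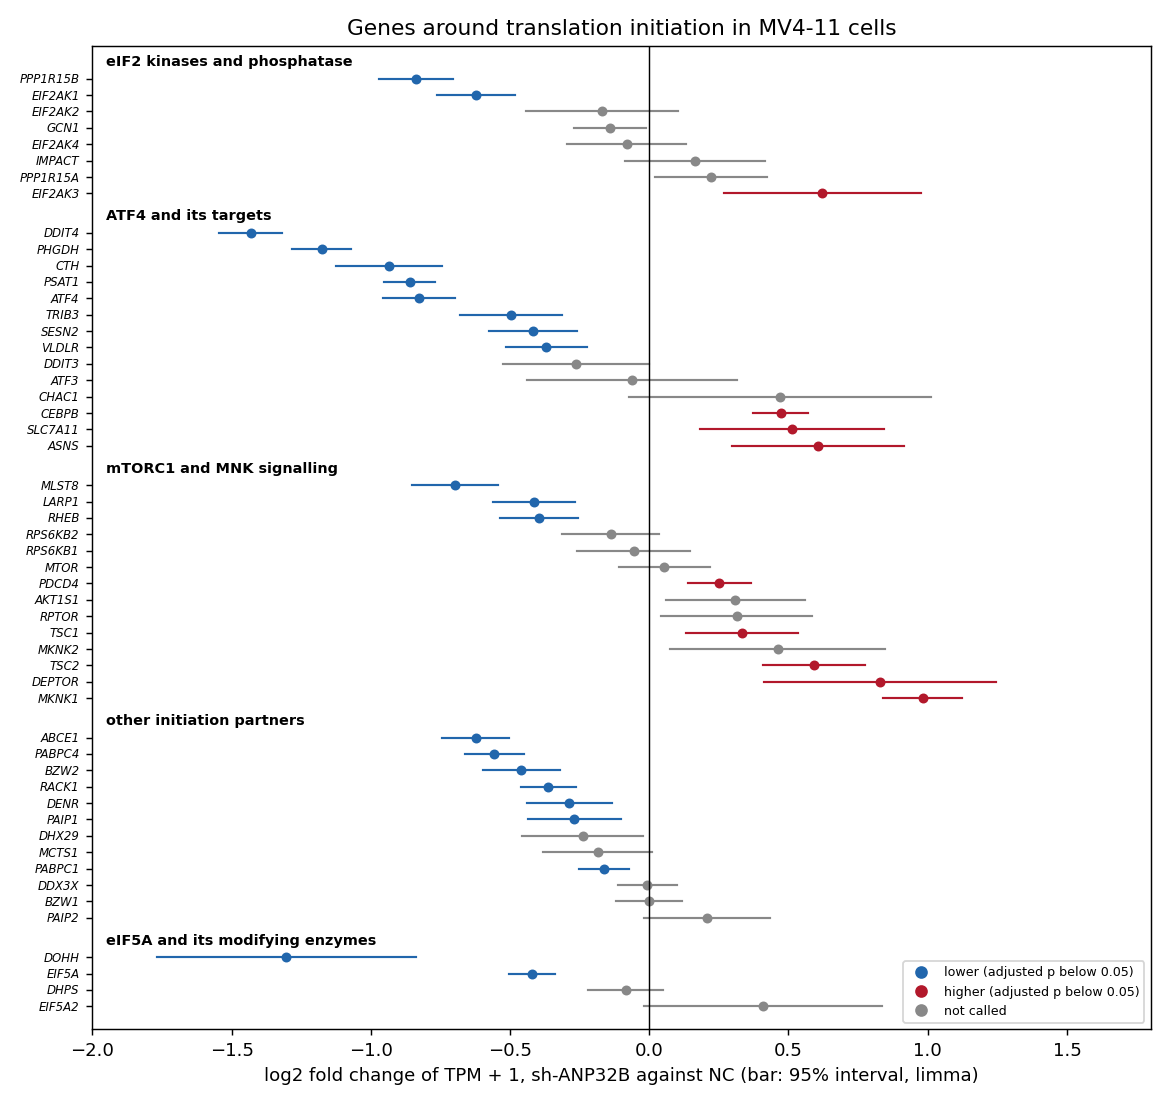
Log2 fold change of TPM + 1 (x axis, sh-ANP32B against NC) of genes around initiation (y axis, by list), with bars for the 95% intervals of limma. Blue is lower, red higher and grey not called, and DDIT4 at -1.43 and MKNK1 at 0.98 mark the ends among the called genes.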

How the data were processed

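RNA was extracted from MV4-11 cells with TRIzol and made into libraries with a TruSeq kit. Per the submitters' notes HISAT2 2.0.5 and hg38 served for alignment, and 1 value for each gene and library was deposited in TPM. This unit was read from the values, which sum to nearly 1 total in each library. The tool, annotation and strand handling behind the TPM are not given in the sources used here. TPM keep no read numbers, so the depth is unknown. The authors called genes with DESeq2, which needs counts and was not run here.

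Of 18885 identifiers, 17290 matched a symbol of GENCODE 44. The 16937 genes that reached 1 TPM in 2 or more of the 4 libraries were tested on log2(TPM + 1) with limma 3.58.1 in R 4.3.3 (lmFit, then eBayes with its trend option), group as the sole term, with Benjamini-Hochberg adjustment. The script was tested on simulated data. Tables and plots were made with Python 3.11.15, pandas 2.3.3 and matplotlib 3.10.9.

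The members and lists were chosen with earlier results of these data known. All members are named by role, with library values for those past the adjusted p with a log2 fold change beyond 0.5, for EIF4E, EIF4A1, EIF4G1 and EIF4EBP1 and for sets of paralogues. From each related list at most the 4 largest called changes were given. Library values of other members were chosen after they were seen. Alternatives were the replicate block, other filters, a pseudocount of 0.1, median-of-ratios scaling, quantile normalization and leaving out each library. Leaving out mitochondrial genes and summing copies and pseudogenes were added after seeing the data. A lineage marker is not reported here.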

Additional observations from a re-analysis of the deposited data

How the results depend on the processing

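The count of lower members, 33, was 28 to 38 over all 12 alternatives, and 30 of the 38 called members kept their call and direction in each. The exceptions were EIF6, EIF2S3B, EIF4EBP2, EIF4A3, EIF4G1, EIF4G3, EIF4E2 and EIF2B4. Where copies were summed, EIF3CL and EIF2S3B were merged into EIF3C and EIF2S3 and had no call of their own. The count of higher members, 5, was 3 with the replicate block (EIF4E2 and EIF2B4 were lost), 2 with median-of-ratios scaling and 2 to 4 on leaving out a library. With the block the count of lower members was again 33, with EIF6 lost and EIF3L gained. At the limits of the study, 16 members were lower with median-of-ratios scaling, 2 were higher with quantile normalization and 2 without mitochondrial genes, and 1 to 2 were higher on leaving out a library. The median log2 fold change of the members, -0.30, was -0.38 with median-of-ratios scaling and -0.27 without mitochondrial genes. That of all genes was 0.08, 0.01 with median-of-ratios scaling and -0.04 with quantile normalization, which left 39 of 47 members below it. The log2 fold change of EIF4E was 0.0245 without mitochondrial genes and -0.25 to 0.24 on leaving out a library, and that of EIF1B was 0.0130 and -0.0615 to 0.0206. The cause of these changes was not tested. Same-numbered libraries deviated from their group means with a correlation of -0.02 over all genes tested. Whether they shared a batch was not tested. With a library left out, the lone sample of a group was taken to vary like the other group. Unknown depth and 2 libraries a group limit calls of small changes in low genes.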

Other observations

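Annotated pseudogenes of several members were listed with levels of their own. EIF1AXP1 was 30.3 and 27.7 TPM in NC and 20.3 and 20.6 TPM in sh-ANP32B, against 54.9 and 56.2 TPM and 43.4 and 41.7 TPM for EIF1AX. The 2 EIF4H pseudogenes listed summed to 14.8 and 18.1 TPM in NC and 11.0 and 15.2 TPM in sh-ANP32B, and EIF3FP3 was 17.6 and 17.3 TPM in NC and 13.2 and 15.4 TPM in sh-ANP32B. With copies and pseudogenes summed into their parent genes, 31 of 45 members were lower and 5 higher.

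The readthrough gene SENP3-EIF4A1 was 2.71 TPM in NC replicate 1 and 35.4 TPM in NC replicate 2, and 15.0 and 10.7 TPM in sh-ANP32B. EIF4A1 in the same NC libraries was 789 and 703 TPM. EIF4A2, whose exons overlap RFC4 on the other strand by 18 bases, was 345 and 338 TPM in sh-ANP32B, while RFC4, a clamp loader subunit of DNA replication, was 98.0 and 102 TPM in NC and 42.4 and 46.9 TPM in sh-ANP32B.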
